A study of Homo sapiens with 2 samples.

Results

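The metallothioneins are small, cysteine-rich proteins that bind zinc and copper, and MTF1 is the zinc-sensing transcription factor that switches their genes on. The set described here held 8 metallothionein genes, MT2A, MT1A, MT1E, MT1F, MT1G, MT1H, MT1M and MT1X, together with MTF1. The 9 members were chosen by symbol and matched to their Ensembl identifiers, out of 57736 genes listed. Their levels were read in 2 RNA-Seq libraries of HEK293T cells, an established line from human embryonic kidney in which the large T antigen of SV40 is expressed. These cultures, labelled wild type, were heated for 20 min at 43 °C, returned to 37 °C for 6 h and then lysed, each replicate on its own. The 20 min is the time in the labels, and the paper states a longer one at 43 °C. Both libraries belonged to this 1 heat-shocked group. No library of untreated cells is analysed here. The values therefore give levels after recovery and the spread between 2 libraries, and not a change with heat.

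Metallothioneins hold zinc and copper in clusters of metal and cysteine thiolate, and so buffer free zinc and bind toxic metals such as cadmium. When free zinc rises, MTF1 enters the nucleus and binds metal response elements, short sequences that are repeated in metallothionein promoters. MT2A and the MT1 genes lie side by side in 1 cluster, and many tissues use MT2A as their main form. Metallothionein genes are also known to respond to glucocorticoids, oxidants and heat.

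The coding sequences of 4 of the genes are shown because the short reads had to be assigned among copies of similar sequence. They are the 3 metallothioneins that received reads and MT1G, the copy closest to MT2A, which received 0. Capitals mark the bases that differ from MT2A. The sequences were assembled from the exons of the principal transcripts in GENCODE on GRCh37. The coding spans, introns included, were chr16:56642568-56643266 for MT2A, chr16:56716453-56717961 for MT1X, chr16:56691971-56693076 for MT1F, all on the plus strand, and chr16:56700791-56701905 on the minus strand for MT1G.
MT2A: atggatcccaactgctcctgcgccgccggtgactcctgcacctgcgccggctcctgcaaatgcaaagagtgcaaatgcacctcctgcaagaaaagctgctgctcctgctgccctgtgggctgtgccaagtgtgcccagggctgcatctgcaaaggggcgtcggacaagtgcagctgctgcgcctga
MT1X: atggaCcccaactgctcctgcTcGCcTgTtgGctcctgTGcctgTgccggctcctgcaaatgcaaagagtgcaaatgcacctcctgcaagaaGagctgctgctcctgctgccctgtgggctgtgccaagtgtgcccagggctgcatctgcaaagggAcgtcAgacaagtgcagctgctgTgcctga
MT1F: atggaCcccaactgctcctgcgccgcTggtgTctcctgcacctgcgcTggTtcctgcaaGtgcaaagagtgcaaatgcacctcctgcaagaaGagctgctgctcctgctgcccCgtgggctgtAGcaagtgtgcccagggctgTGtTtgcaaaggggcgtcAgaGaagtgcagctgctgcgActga
MT1G: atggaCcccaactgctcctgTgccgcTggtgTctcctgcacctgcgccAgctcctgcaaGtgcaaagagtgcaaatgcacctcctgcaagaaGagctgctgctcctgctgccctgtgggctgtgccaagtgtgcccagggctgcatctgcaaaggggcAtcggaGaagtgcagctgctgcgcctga

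All 8 metallothionein members had coding sequences of 186 bases in 3 coding exons, with 61 codons before the stop codon. In each of them 20 codons were for cysteine. The identity to MT2A ran from 89.8% in MT1M, with 19 bases that differed, to 95.2% in MT1G, with 9. MT1A, MT1E and MT1X each differed from MT2A at 14 bases, MT1H at 15 and MT1F at 16. The least alike pair was MT1F and MT1X, with 21 differing bases.

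The sequences of 250 bases before the start of MT2A, MT1X and MT1H are shown because metallothionein promoters are known to bear the metal response elements that MTF1 binds. They are RefSeq sequences on GRCh38.p14, at chr16:56608334-56608583, chr16:56682220-56682469 and chr16:56669564-56669813, plus strand. Capitals mark matches to the core of the element, written as TGCACNC or TGCGCNC, on either strand, and none of the marked matches overlapped another.
MT2A: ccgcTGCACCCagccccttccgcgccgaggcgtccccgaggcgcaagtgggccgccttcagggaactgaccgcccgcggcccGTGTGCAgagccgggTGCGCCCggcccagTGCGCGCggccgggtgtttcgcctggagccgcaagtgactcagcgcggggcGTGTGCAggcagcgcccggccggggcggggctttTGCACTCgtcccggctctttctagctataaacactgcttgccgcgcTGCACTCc
MT1X: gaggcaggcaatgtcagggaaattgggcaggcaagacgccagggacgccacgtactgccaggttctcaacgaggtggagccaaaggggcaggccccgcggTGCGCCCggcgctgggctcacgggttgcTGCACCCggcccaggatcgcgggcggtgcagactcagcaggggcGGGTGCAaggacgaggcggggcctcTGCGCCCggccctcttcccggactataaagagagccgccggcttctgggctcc
MT1H: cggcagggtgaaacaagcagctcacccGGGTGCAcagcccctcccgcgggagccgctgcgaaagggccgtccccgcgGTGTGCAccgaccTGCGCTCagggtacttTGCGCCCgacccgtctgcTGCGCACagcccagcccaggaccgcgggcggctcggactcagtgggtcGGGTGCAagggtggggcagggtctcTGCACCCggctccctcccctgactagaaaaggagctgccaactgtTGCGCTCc

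The core was matched 7 times before MT2A, 4 times before MT1X and 8 times before MT1H, while the 250 bases before MTF1 itself held 0 matches. These were the 4 members with a promoter sequence in the table used. Of the 35116 promoters of the same length, 24.8% held at least 1 match, 0.370% at least 4, 0.0313% at least 7 and 0.0171% at least 8. The match nearest to the start ended 2 bases before it in both MT2A and MT1H, and 47 bases before it in MT1X. Letters of paired heat shock element units, GAANNTTC and TTCNNGAA, searched on both strands, were matched 0 times in all 4 of these windows, and were found in 5.78% and 6.62% of promoters. A match is a description of letters and not of binding, which was not measured.

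Replicate 1 held 22529828 expected counts and replicate 2 held 26890199. Expected counts are reads that the authors' quantifier shared out among genes and transcripts. TPM is the resulting level per length of transcript, scaled to the same total in each library. A gene was called detected where both libraries gave 1 TPM or more. By that measure 15188 of 57736 genes were detected, or 26.3%, and 12367 of 19391 protein-coding genes, or 63.8%. Of 10 kidney epithelial markers 1 was detected, LRP2, at 5.09 and 6.00 TPM in replicates 1 and 2, and UMOD and AQP2 were at 0 in both. The 2 blood markers stood at 0.12 TPM or below in both libraries, and all 3 neuronal markers in the tables were detected.

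Of the 9 members, 4 were detected and 5 were listed at 0. The detected members were MT2A, MT1X, MTF1 and MT1F, in order of level. MT1A, MT1E, MT1G, MT1H and MT1M had 0 expected counts in both libraries. Among all genes 45.2% had 0 expected counts in both libraries, and among protein-coding genes 13.7%.

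MT2A, the main metallothionein of many tissues, lay at chr16:56642496-56643409 of GRCh37 on the plus strand. Its level was 16.6 TPM in replicate 1 and 14.6 TPM in replicate 2, a mean of 15.6 ± 1.39 (SD, n = 2). The credibility bounds deposited with these values, whose level the files do not state, ran from 13.2 to 19.2 TPM and from 11.7 to 17.0 TPM, so the libraries overlapped. By mean TPM, which rests on the effective lengths described below, MT2A ranked 7254 of the 15188 detected genes, near the middle. The median detected gene stood at 14.3 TPM. Among detected protein-coding genes, whose median was 18.6 TPM, MT2A lay at percentile 44.6.

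The reads behind MT2A were few. The expected counts were 134 and 159 in replicates 1 and 2, and their posterior SDs, the quantifier's uncertainty of the assignment, were 1.17 and 1.06 counts. As CPM, which scales counts to the library total without regard to length, MT2A stood at 5.96 and 5.90, closer together than its TPM. The effective length that enters TPM follows the transcripts to which reads were assigned. For MT2A it was 445 bases in replicate 1 and 524 bases in replicate 2. In replicate 1 the length and effective length were 396 and 347.9 bases for MT1A, and 7972 and 7923.9 bases for MTF1. The gap was much the same in both and close to the length of a read. Fragments longer than a read would take a larger share off short transcripts. The TPM ranks of the metallothioneins and their ratios to MTF1 were not tested for this.

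MT1X was the second metallothionein by level. It is the last metallothionein at the far end of the cluster, at chr16:56716382-56718108. It stood at 8.69 TPM in replicate 1 and 6.45 TPM in replicate 2, a mean of 7.57 ± 1.58 (SD, n = 2), with bounds of 6.36 to 10.6 and 4.65 to 8.09 TPM that overlapped. The expected counts were 67.1 and 60.8, and the posterior SDs of 2.20 and 1.90 counts were the widest of the 9 members. MT1X ranked 9948 of the detected genes. A long noncoding RNA, ENSG00000259827, begins at the same base on the same strand and was listed at 0 counts in both libraries, with posterior SDs of 1.66 and 1.24 counts. Because their exons overlap, reads from the shared sequence are uncertain as to which of the pair they came from. The posterior SDs of MT1X were 3.28% and 3.12% of its counts in replicates 1 and 2. For MT1F, on fewer counts, these shares were 2.17% and 5.35%, so that in replicate 2 MT1F was the less certain by this measure.

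MT1F was the third and lowest of the metallothioneins with reads. At chr16:56691643-56694610, it held 28.6 expected counts in replicate 1 and 14.4 in replicate 2, or 2.58 and 1.51 TPM, a mean of 2.05 ± 0.757 (SD, n = 2). Its SD was 37.0% of its mean, against 8.90% for MT2A, 20.9% for MT1X and 8.84% for MTF1. The bounds were 2.09 to 4.52 and 0.998 to 2.89 TPM, so the libraries overlapped and those of replicate 2 reached below the detection limit of 1. The effective length was 607 bases in replicate 1 and 459 bases in replicate 2. MT1F ranked 13756 of the detected genes, and lay at percentile 5.47 among the protein-coding ones.

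MTF1, on chromosome 1 at chr1:38275246-38325264 of the minus strand, stood at 3.0 TPM in replicate 1 and 3.4 TPM in replicate 2, a mean of 3.20 ± 0.283 (SD, n = 2). The bounds were 2.70 to 4.09 and 3.11 to 4.36 TPM, and the libraries overlapped. Its transcripts are long, 7972 bases against 493 bases for MT2A in replicate 1, so that this lower level rested on more reads, 434 and 560 expected counts with a posterior SD of 0 in both. MTF1 ranked 12556 of the detected genes and lay at percentile 10.8 of the protein-coding ones.

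**Figure D1:**
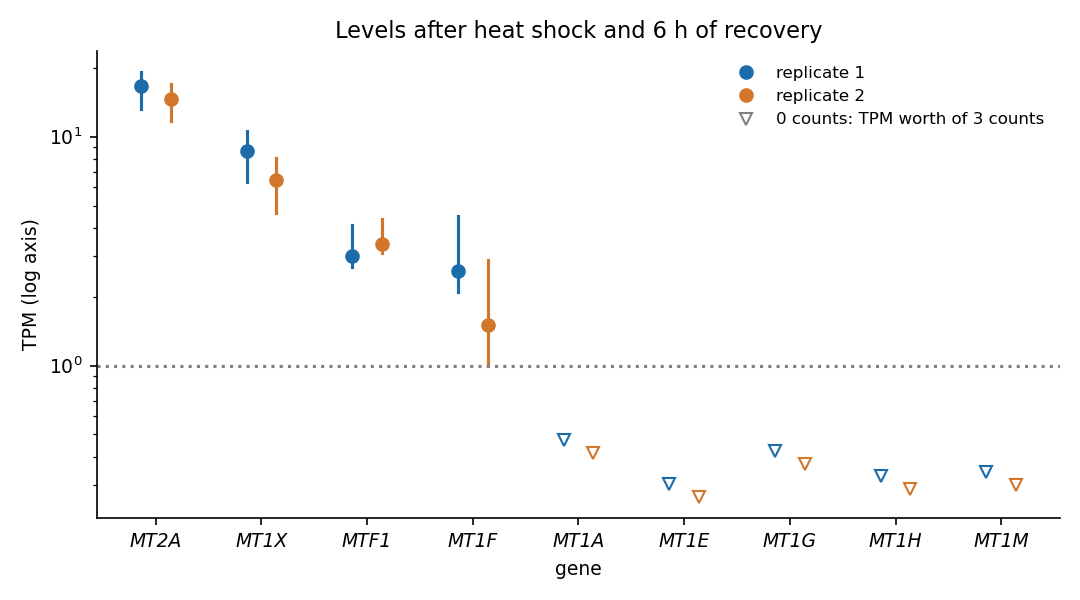
TPM on a log axis of the 9 genes in replicate 1 (blue) and replicate 2 (orange). Dots are the deposited values with their credibility bounds as lines, open triangles stand for genes with 0 counts and mark the TPM that 3 counts would give, and the dotted line is the detection limit of 1 TPM. MT2A is highest at 16.6 and 14.6 TPM, followed by MT1X, MTF1 and MT1F, and the 5 other genes lie below the limit.

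The order of the 4 detected members was the same in both libraries. MT2A was 1.91 times and 2.26 times as high as MT1X in replicates 1 and 2, and the bounds of the pair did not overlap in either. MT1X was 2.90 and 1.90 times as high as MTF1, again without overlap. MTF1 and MT1F, the lowest neighbours, were at a ratio of 1.16 in replicate 1, where their bounds overlapped, and of 2.25 in replicate 2, where they did not. These 2 neighbours were thus not told apart in replicate 1.

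**Figure D2:**
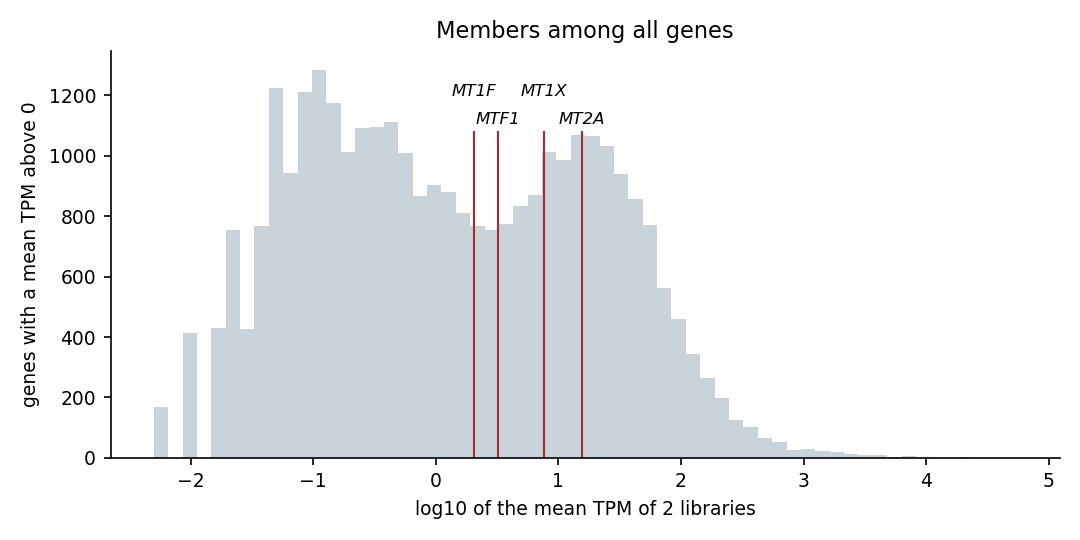
Number of genes by log10 of the mean TPM of 2 libraries, for genes with a mean TPM above 0, with red lines at the 4 detected members. MT2A, at a mean of 15.6 TPM, falls near the middle of the peak of well expressed genes, and MTF1 and MT1F, at 3.20 and 2.05 TPM, fall in the dip to its left.

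For the 5 genes without reads, depth and length set how low a level could be seen. In them 3 counts, the limit set for a count of 0, would have been worth from 0.304 TPM in MT1E to 0.473 TPM in MT1A in replicate 1, and from 0.268 to 0.415 TPM for the same genes in the other library. These limits allow for counting error alone. The deposited upper bounds lay above these limits for all 5 genes in both libraries, and the highest was that of MT1G, with 1.28 and 1.19 TPM, followed by MT1M with 0.950 and 0.838 TPM. The lowest was that of MT1A, with 0.508 and 0.423 TPM. Set against these upper bounds, the level of MT2A was 12.9 and 12.3 times that of MT1G in replicates 1 and 2, and 32.6 and 34.5 times that of MT1A, the ends of the range over the 5 genes. The level of MT1X was 6.78 and 5.44 times the upper bound of MT1G. That of MT1F was 2.01 and 1.27 times the same bound, and in replicate 2 the bounds of MT1F and MT1G overlapped, so the pair was not told apart there.

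The posterior SDs of the 5 genes were small. For MT1G they were 0.49 and 0.75 counts, for MT1A 0.35 and 0.25, and for MT1M 0.07 and 0.22, while MT1E and MT1H had 0 in both libraries. For each of these genes the posterior SD of the assigned count was thus below 1. The bounds of TPM are another measure. For MT1E and MT1H, with SDs of 0, the upper bounds in replicate 1 were still 0.777 and 0.568 TPM. Their posterior mean counts there were 0, yet their posterior mean TPM was 0.35 and 0.23. These bounds therefore did not rest on reads assigned to the genes.

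The 8 metallothioneins together held 27.8 TPM in replicate 1 and 22.6 TPM in replicate 2, a mean of 25.2 ± 3.73 (SD, n = 2), or 0.00278% and 0.00226% of all TPM. The summed TPM was 9.28 and 6.64 times the level of MTF1, ratios of short to long transcripts that rest on the effective lengths given above. MT2A made up 59.5% and 64.7% of the sum, MT1X 31.2% and 28.6%, and MT1F 9.27% and 6.69%. The expected counts of the single genes were not whole, but those of the family summed to 230 in replicate 1 and 234 in replicate 2.

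The sharing of reads was set beside the sequence that the transcripts have in common. Windows of 50 bases, the length of a read, were taken along the reference transcripts and looked up in the transcripts of all other genes. In MT2A 4.18% of 1005 windows were also found in another gene, and 2.19% were found in another member. MT1F shared the least of the metallothioneins by percentage, 1.24% of 1934 windows, which came from 4 of its 5 listed transcripts. Windows were pooled over all listed transcripts of a gene, and the percentages depend on that pool. By number MT1A shared fewer, 20 of 347 windows, against 24 in MT1F. MT1X shared the most, 18.7% of 1821 windows, of which 273 windows were shared with the overlapping ENSG00000259827 and 63 with other members. Among the 5 genes at 0 the share was 5.76% in MT1A, 7.10% in MT1E, 15.8% in MT1H, 16.4% in MT1G and 18.2% in MT1M. In every metallothionein member most of the windows were therefore found in no other gene. MTF1 shared 0.894% of 7938 windows, and 0 of them with a metallothionein. Windows with a mismatch were not counted.

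**Figure D3:**
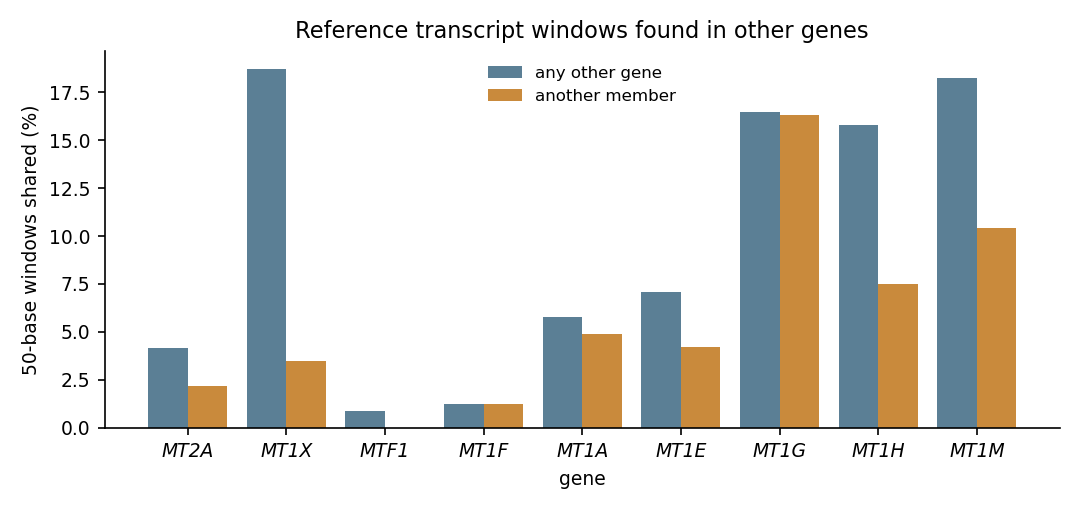
Percentage of the 50-base windows of each gene's reference transcripts that also occur in any other gene (blue) or in another of the 9 genes (orange). MT1X reaches 18.7% for any gene but 3.46% for members, while MT1G stands at 16.4% and 16.3%.

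The cluster was then read gene by gene. From the start of MT4 to the end of MT1X it spanned 119 kb of chromosome 16 (chr16:56598985-56718108 of GRCh37), with 23 annotated genes that overlap it. Of these, 12 were protein-coding, 6 were long noncoding RNAs and 5 were pseudogenes. Some loci were counted under more than 1 entry. MT1JP was annotated both as a pseudogene and as a long noncoding RNA, and other long noncoding RNAs spanned the pseudogenes MT1L and MT1DP. These long noncoding RNAs were not in the tables. The tables held 19 of the 23, and 15 of the 19 were at 0 counts in both libraries. The 4 detected genes were MT2A, MT1F, MT1X and BBS2, a gene of the basal body of cilia, on the minus strand, whose locus reaches into the cluster. BBS2 stood at 35.1 and 38.3 TPM. On the far side of the cluster the nearest protein-coding gene was NUP93, which codes for a nucleoporin, at 144 and 123 TPM. On the near side the nearest protein-coding gene that does not overlap the cluster, ENSG00000288725, was not in the tables.

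The detected metallothioneins were not neighbours. MT2A started 43.5 kb, MT1F 92.7 kb and MT1X 117 kb from the start of MT4, and genes at 0 lay between them. MT1E, MT1M, MT1A and MT1B, all at 0, lay between MT2A and MT1F. MT1G and MT1H, also at 0, lay between MT1F and MT1X. Of the members in the cluster MT1G alone is on the minus strand.

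**Figure D4:**
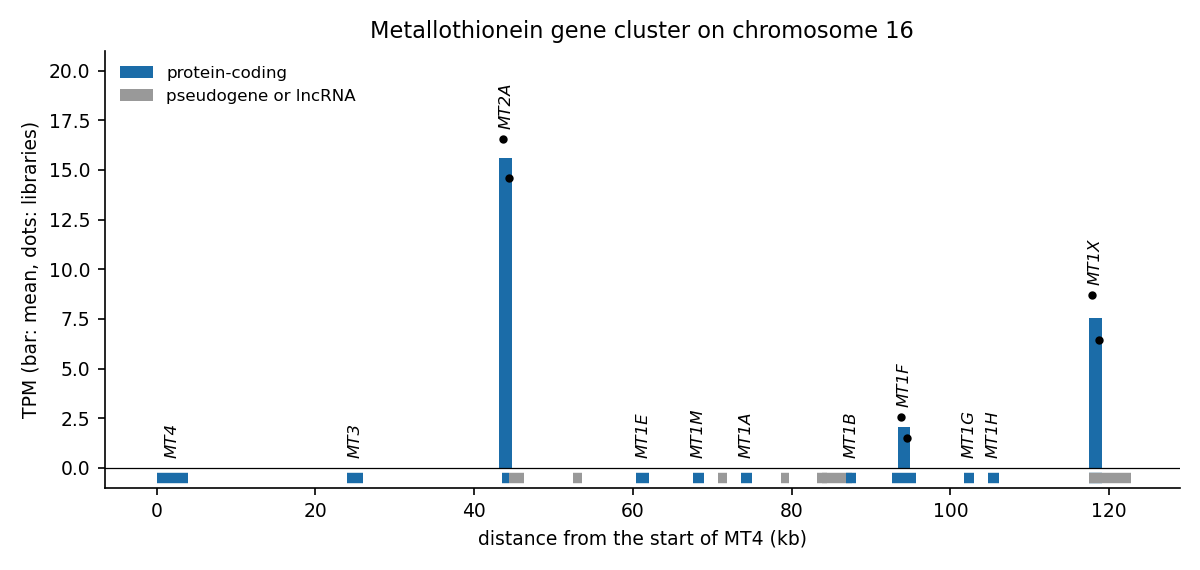
Mean TPM (bars) and the value in each library (dots) of the metallothionein cluster's genes by distance in kb from the start of MT4, with thick lines for the extent of each gene, protein-coding in blue and pseudogenes or long noncoding RNAs in grey. BBS2 is left out. Of the genes drawn, MT2A, MT1F and MT1X have bars above 0, with means of 15.6, 2.05 and 7.57 TPM.

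Further metallothionein genes and pseudogenes of the genome gave no reads. Of 13 such symbols 12 were in the tables, MT1B, MT3, MT4, MT1HL1 and the pseudogenes MT1L, MT1JP, MT1DP, MT1CP, MT1P1, MT1P3, MT1XP1 and MT2P1, and all 12 were at 0 counts and 0 TPM in both libraries. MT3 is the metallothionein known from brain, and its upper bounds were 1.15 and 1.03 TPM. The widest upper bounds were those of the pseudogene MT1L, 5.45 and 4.76 TPM. MT1IP was not in the tables.

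The libraries were compared with each other gene by gene, which compares 2 libraries of 1 condition and not conditions. An exact two-sided binomial test of the rounded expected counts was adjusted by the Benjamini-Hochberg method over the 19714 genes with 10 or more counts in the libraries together. It called 43.1% of these genes at an adjusted p under 0.05. Of the members, 4 could be tested and 1 was called. It was higher in replicate 1, as were 22.2% of all genes tested, while 0 members were called higher in replicate 2, against 20.9%.

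The member called was MT1F. With 28.6 and 14.4 expected counts, its log2 ratio of replicate 2 over replicate 1 was -1.33, and the adjusted p in the exact binomial test was 0.00927. On the TPM scale, where the effective length of each library enters, the log2 ratio of MT1F was -0.77, and its bounds overlapped between the libraries. The counting error of the counts was 18.7% and 26.4%. For MT1X the log2 ratio was -0.44 with an adjusted p of 0.173 in the same exact test, for MT2A it was -0.06 with an adjusted p of 0.871, and for MTF1 it was 0.06 with an adjusted p of 0.654. The test takes the spread of counting alone as error and not that between cultures. When the biological coefficient of variation was assumed to be 0.1, in the exact test of edgeR, 0 of the 4 members were called, against 7.24% of all genes.

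The ratio between the libraries moved with GC content over all genes. MT1F, MT1X and MT2A, at 53.0%, 52.1% and 54.2% GC, lay above the median of 49.9% over the genes tested, and MTF1 lay below it at 46.9%. After the median trend with GC was taken off, the log2 ratio of MT1F was -1.20 and its adjusted p in the exact test was 0.0330. That of MT1X was -0.32, that of MT2A turned to 0.12, and that of MTF1 was 0.03. The median log2 ratio of the 4 members was -0.25, beside 0.00 for all genes tested, and the medians of its size without sign were 0.25 and 0.28.

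**Figure D5:**
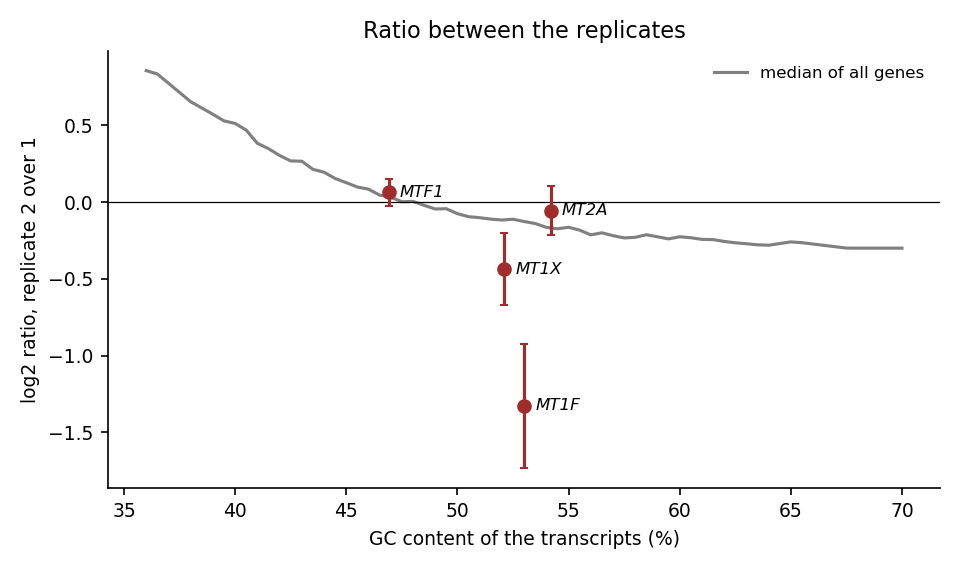
Log2 ratio of replicate 2 over replicate 1 against the GC content of the transcripts in percent, for the 4 members tested (red, with bars of 1 counting standard error) and the median of all genes (grey line). MT1F, at -1.33, and MT1X, at -0.44, lie below the line by more than their bars, and MT2A and MTF1 lie within their bars of it.

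The other genes of zinc and copper handling were mostly detected, as were 63.8% of all protein-coding genes by the same rule. Among the SLC30 genes, listed here as zinc exporters, 7 of 10 were detected. The highest were SLC30A5, with 42.5 and 46.7 TPM, SLC30A9, with 28.5 and 39.8 TPM, and SLC30A6, with 8.84 and 11.8 TPM. The lowest was SLC30A2, with 0.08 and 0 TPM. Among the SLC39 zinc importers, which bring zinc into the cytosol, 11 of 14 were detected. SLC39A1, at the plasma membrane, stood at 75.6 and 69.1 TPM, SLC39A6 at 38.4 and 53.5 TPM and SLC39A7, which releases zinc from the endoplasmic reticulum, at 43.1 and 44.2 TPM. SLC39A12 was at 0 in both libraries.

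All 6 genes listed as further targets of MTF1 were detected, beside 63.8% of all protein-coding genes. SELENOH, a selenoprotein of the nucleus, stood at 86.9 and 75.6 TPM. SLC39A10, a zinc importer that MTF1 is known to repress, stood at 24.8 and 49.7 TPM, and GCLC, the catalytic subunit of the enzyme that starts glutathione synthesis, at 23.1 and 35.2 TPM. The lowest was SLC40A1, the iron exporter ferroportin, at 2.73 and 2.76 TPM. SLC30A1, the zinc exporter of the plasma membrane, was named after its values were seen, which were 2.43 and 3.97 TPM.

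Of 12 symbols for copper handling 11 were in the tables and all 11 were detected, against 63.8% of all protein-coding genes. SOD1, the copper and zinc superoxide dismutase, stood at 304 and 254 TPM, and ATOX1, the copper chaperone of the copper pumps, at 75.5 and 62.4 TPM. SCO1, which takes copper to cytochrome c oxidase, stood at 45.5 and 42.1 TPM, and the lowest, SLC31A2, at 1.20 and 1.06 TPM. SCO2 was not matched.

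All 8 listed factors that are known to act at metallothionein promoters beside MTF1 were detected, where the share of all protein-coding genes was 63.8%. Each of the 8 stood above MTF1 in level. USF2 and USF1, which bind E-boxes, stood at 155 and 144 TPM and at 61.7 and 57.6 TPM. HSF1, the main heat shock factor, stood at 118 TPM in both libraries. The lowest of the 8 was the glucocorticoid receptor gene NR3C1, at 10.3 and 13.3 TPM.

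Between the libraries, 5 of 8 SLC30 genes tested were called higher in replicate 2 and 0 in replicate 1, with a median log2 ratio of 0.50 that was 0.07 once the GC trend was taken off. Over all genes tested, 20.9% were called higher in replicate 2 and 22.2% higher in replicate 1. For the zinc importers 2 of 11 were called higher in replicate 2 and 4 in replicate 1. For the other targets of MTF1 the numbers were 3 and 2 of 6, for copper handling 2 and 3 of 11, and for the promoter factors 4 and 4 of 8. SLC30A1 and SLC39A10 were counted both in their families and among the targets of MTF1. For SLC30A9 the log2 ratio was 0.49 as scaled and -0.02 once the trend was taken off, and for SLC39A10 it was 0.82 and 0.47.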

How the data were processed

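Poly(A)+ RNA of 2 separately lysed cultures was sequenced in reads of 50 bp. The molecule field of the labels reads genomic DNA, but their protocol is for RNA. The submitters' processing notes name Trimmomatic 0.36, STAR 2.6.1c and RSEM 1.3.1 without roles, and the GRCh37/hg19 build. In place of RSEM, the paper names featureCounts for counting genes. Strand use in counting is not stated, so overlapping and antisense genes are uncertain. The deposited tables give, per gene, an expected count, in which multi-mapped reads were shared among genes. As deposited, TPM was scaled to effective length and to 1 total per library, and deposited FPKM to effective length and library reads. The bounds of TPM, deposited by the authors, were read as a score with no stated level. Posterior SDs and lengths were also deposited.

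The members and gene lists were chosen with earlier results of these data known. Genes were named by a rule. All 9 members were given, of each list of zinc, copper, MTF1 target and promoter factor genes the 3 highest and the lowest by mean TPM, and in the cluster the nearest protein-coding gene on each side. Cell type markers were counted, and those printed by name were chosen after their values were seen. Levels were ranked by mean TPM, with detection at 1 TPM in both libraries. Expected counts were rounded for the exact binomial test between libraries. The share of each library came from TMM factors of edgeR 4.0.16, computed over genes with 10 or more counts in all. Ratios used a pseudocount of 0.5 count, and the GC trend was the median in 50 classes of genes with at least 100 counts. The binomial test was also run on simulated data that held counting error alone. Spread between cultures and a GC trend were not simulated, so that run says nothing about them. With 1 group, no test of a condition was possible. Alternatives covered thresholds, units, scaling (with DESeq2 1.42.0), the count minimum and leaving out each replicate. The removal of the GC trend from the number of calls was added after seeing the data. Windows and coding sequences came from GENCODE release 44 mapped to GRCh37, another release than the one the methods name, and promoters from RefSeq. R 4.3.3 and Python 3.11.15 with scipy 1.17.1 were used.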

Additional observations from a re-analysis of the deposited data

How the results depend on the processing

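No paired analysis was possible because both libraries belong to 1 group. The number of detected members stayed at 4 with TPM minimums of 0.1 and 0.5, with posterior means and without either replicate, was 3 by CPM of at least 1 and 2 with a TPM minimum of 5. The summed TPM of the metallothioneins, 25.2, ran from 22.6 to 27.8 without either replicate. It was 20.0 in FPKM and 31.2 with 394 nuclear copies of mitochondrial genes, which held 19.1% and 19.5% of TPM, left out of the total. The share of MT2A, 62.1%, ran from 59.5% to 64.7% without either replicate and was 56.9% from posterior mean TPM. The 1 member called between the libraries was MT1F under library totals (41.5% of all genes called), DESeq2 size factors (42.5%), no count minimum (25.5%), posterior mean counts (41.8%) and GC removal (28.8%), with adjusted p-values of the exact binomial test from 0.00927 to 0.0330 over the alternatives of its log2 ratio. The edgeR exact test with the assumed coefficient of 0.1 called 0 members and 7.24% of all genes. The log2 ratio of MT2A turned from -0.06 to 0.12 with the GC trend removed, and the other 15 alternatives of the members' log2 ratios kept their direction and their side of the threshold. Among the 15 was a pseudocount of 1 count for each member, which does not enter the test and so could not change the side of the threshold. Leaving out a replicate gives no test between libraries. Depth limits the 5 genes at 0 and MT1F, whose 14.4 counts in replicate 2 carry a counting error of 26.4%.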

Other observations

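A further table was read as the authors' pooled values of both libraries. In it MT2A stood at 15.5 TPM on 293 expected counts, MT1X at 7.50 TPM on 128 counts, MTF1 at 3.22 TPM on 994 counts and MT1F at 2.01 TPM on 43.0 counts, and the same 5 members were at 0. The pooled upper bounds of the genes at 0 ran from 0.240 TPM in MT1A to 0.627 TPM in MT1G, below the detection limit of 1 TPM for all 5. Of the 35116 promoters searched, 11 held at least 7 matches to the core of the metal response element, and MT1H and MT2A were among these 11.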
